A study of Macaca mulatta with 30 samples.

Results

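Aquaporins are membrane channels that carry water, and in some members glycerol and other small solutes, through lipid bilayers. The genes described here are all rows of a rhesus macaque expression table whose symbol is AQP followed by digits and whose mean reached at least 1 TPM in at least 1 of 5 tissues. TPM values divide reads by transcript length and scale every library to the same total, so levels of different genes can be set side by side. The rule took 10 of the 21292 genes of the table: AQP1, AQP2, AQP3, AQP4, AQP5, AQP6, AQP7, AQP8, AQP9 and AQP11. Of the 11 rows so named, AQP10 fell outside it, with a highest tissue mean of 0.0154 TPM and 0 in 29 of the 30 libraries, whereas AQP4, the lowest member, reached 1.49 TPM in parotid. AQP12A, whose symbol ends in a letter, was described beside the members, and MIP, the lens aquaporin, was listed at 0 in 29 libraries.

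Salivary and pancreatic fluid forms when secretory cells move ions into the lumen and water follows, through aquaporins in the cell membranes and between the cells. AQP5 lies in the apical membrane of salivary acinar cells and is the channel best known for saliva, AQP1 is a constitutive channel of capillaries and red cells, and AQP8 is known from pancreatic acinar cells. The aquaglyceroporins AQP3, AQP7 and AQP9 also pass glycerol, which fat cells release and liver cells take up, and AQP11 and AQP12 are divergent members found on intracellular membranes.

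Each of 6 rhesus macaques (Macaca mulatta), 4 females and 2 males, gave 5 libraries, from liver, pancreas and the 3 major salivary glands (parotid, submandibular, sublingual), 30 in all. The animals were untreated as far as the labels say, and their ages are not given in the sources used here. RNA came from a few frozen tissue sections, so a library reflects whatever cells those sections held, and the parotid of animal 3 was the right gland while the others were the left. The design text names the glands against pancreas, and pancreas against liver, within each animal, as its main comparisons.

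Markers of cell types differed between some libraries of the same tissue, and so did aquaporins. In the pancreas library of animal 4 the 10 measured pancreatic acinar markers summed to 3285 TPM, against 136981 to 313425 in the other 5, while the 7 adipocyte markers summed to 18433 TPM, against at most 1754. In the submandibular library of animal 4 the 8 serous salivary markers summed to 1802 TPM, against 251774 to 344245 in the other 5, and the adipocyte markers to 8248 TPM, against at most 132. Liver libraries reached as much, up to 3887 and 8748 TPM for these 2 lists, so the defining genes of the labelled tissue were at the level of unrelated tissue, and aquaporin results that rest on these 2 libraries are given with and without them. The 7 basal and ductal markers, mostly keratins, in the sublingual pieces of animals 1 and 4 summed to 5062 and 5341 TPM, against 128 to 426 in the other 4, and the 8 mucous markers to 33268 and 3224 TPM, against 176157 to 340810. KRT13 and SPRR3, genes of the stratified lining of the mouth picked after their values were seen, stood at 10694 and 14720 TPM in animal 1 and at 34537 and 38847 TPM in animal 4, and at no more than 136 TPM in the other 4 sublingual libraries. Skeletal muscle markers were high in the parotid of animals 1 and 6 and in the sublingual gland of animals 1 and 5. In tissue pieces, fewer cells of a type and less RNA per cell cannot be told apart.

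Differences were tested with limma on log2(TPM + 1), with animal as a block, over the 13550 genes that reached 1 TPM in at least 6 libraries. Every fold change below is a difference of such log values, smaller than the true change where TPM is low, and a gene was called at a Benjamini-Hochberg adjusted p below 0.05. AQP4 and AQP6 did not pass the filter, which left 8 members with a test. Of these 8, AQP2, AQP3 and AQP5 were higher and AQP8 and AQP11 lower in parotid than in pancreas, where 15.8% of all genes were called. In submandibular gland against pancreas AQP1, AQP3 and AQP5 were higher and AQP8 and AQP11 lower, with 9.71% of all genes called, and in sublingual gland against pancreas the calls were those of parotid, with 13.9%. In pancreas against liver AQP8 was higher and AQP9 and AQP11 lower, with 30.4%. Over all 13550 genes the median of the log2 fold changes stood at -0.48, -0.33, 0.23 and -0.36 in these 4 comparisons, and over the 8 members at 0.33, 0.18, 0.55 and 0.06. TPM are shares of a fixed total, so a few very abundant transcripts press all others down. In parotid against pancreas 303 genes were higher and 1838 lower, and after trimmed-mean scaling, which brings the median to 0.04, 1208 were higher and 1145 lower. In the other 3 comparisons that scaling took the calls from 305 higher and 1011 lower to 1118 and 1060, from 1412 and 475 to 1539 and 1351, and from 916 and 3198 to 2064 and 2928.

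**Figure D1:**
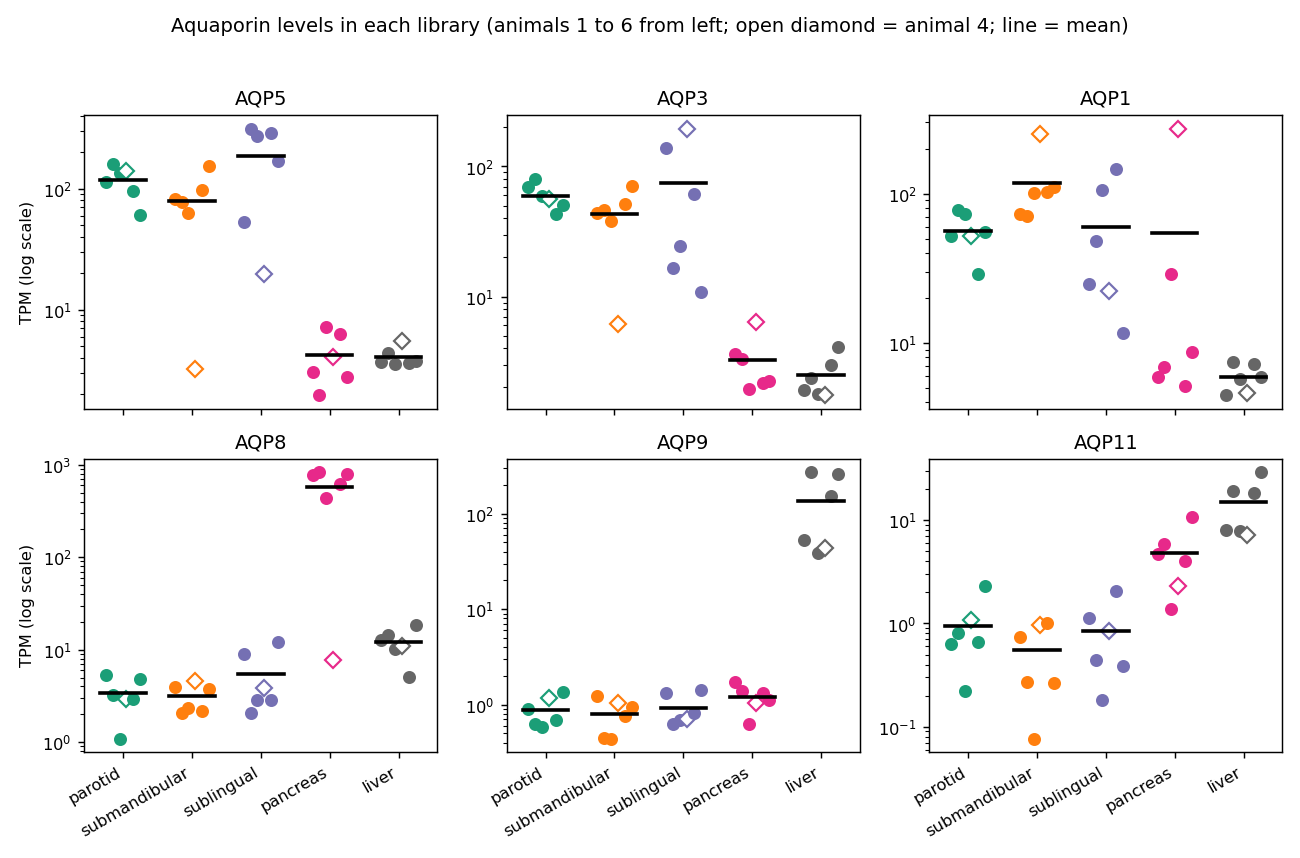
TPM of 6 aquaporins (log scale) in each library, by tissue; points run from animal 1 to animal 6, the open diamond is animal 4 and the line is the mean of 6 animals. AQP5 and AQP3 are high in the 3 glands except submandibular gland of animal 4, AQP8 in pancreas except in animal 4, and AQP9 in liver.

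AQP5 was a gland gene in these tissues: its mean was 117 TPM ± 35.3 (SD, n = 6) in parotid, 79.5 ± 48.5 submandibular and 186 ± 127 sublingual, against 4.25 ± 2.11 in pancreas and 4.09 ± 0.783 in liver. From animal 1 to animal 6 the parotid libraries held 114, 159, 135, 139, 95 and 60.2 TPM. The submandibular libraries held 82.5, 77.5, 63.5, 3.22, 97.6 and 153 TPM, and the sublingual libraries 53.4, 313, 273, 19.8, 290 and 168 TPM. The low values are those of the 3 pieces in which the acinar markers were also low, the submandibular gland of animal 4 and the sublingual gland of animals 1 and 4. Pancreas ranged from 1.96 to 7.24 TPM and liver from 3.59 to 5.57 TPM, and the submandibular library of animal 4 was the one gland library within the pancreas range, and lay below the liver range.

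The log2 fold change of AQP5 against pancreas was 4.52 (SE 0.59, adjusted p 3.58e-06 in limma) for parotid, 3.48 (adjusted p 1.60e-04) for submandibular gland and 4.73 (adjusted p 1.50e-06) for sublingual gland, with the gland higher in 6, 5 and 6 of the 6 animals. Without the 2 libraries of animal 4 the submandibular value was 4.23, and with sublingual animals 1 and 4 left out the value of that gland was 5.53. Trimmed-mean scaling gave 5.27, 4.10 and 4.42. Against liver the 3 glands were higher by 4.48, 3.44 and 4.69, all called, in comparisons where 58.0% (parotid), 50.7% (submandibular) and 31.5% (sublingual) of all genes were called. Pancreas and liver did not differ past the threshold, at -0.04 (SE 0.59, adjusted p 0.967 in limma).

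AQP3, an aquaglyceroporin of basolateral membranes and of squamous epithelia, was also a gland gene, with means of 59.6 TPM ± 13.2 (parotid), 43.0 ± 21.3 (submandibular) and 74.6 ± 75.9 (sublingual), and of 3.28 ± 1.67 in pancreas and 2.48 ± 0.926 in liver (SD, n = 6). The parotid libraries held 69.9, 79.5, 58.8, 56.1, 42.9 and 50.5 TPM. In submandibular gland the values were 44.0, 46.6, 38.1, 6.19, 51.8 and 71.2 TPM, again with animal 4 lowest. The sublingual libraries held 139, 16.7, 24.3, 195, 61.3 and 10.8 TPM. The 2 pieces high in keratin genes, animals 1 and 4, had the most AQP3 and the least AQP5 of that gland. The part of any lining tissue in the sublingual values was not tested.

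AQP3 rose over pancreas by 3.87 (SE 0.56, adjusted p 1.48e-05 in limma) in parotid, 3.16 (adjusted p 2.52e-04) submandibular and 3.49 (adjusted p 4.88e-05) sublingual, in 6, 5 and 6 of the 6 animals. Without the sublingual libraries of animals 1 and 4 the last value was 2.48, with an adjusted p of 9.02e-04. Without the 2 low-acinar libraries of animal 4 the submandibular value was 3.81. Against liver all 3 glands were higher, by 4.13, 3.42 and 3.75 with adjusted p of 8.62e-07, 1.62e-05 and 4.82e-06 in limma.

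The balance of AQP5 and AQP3 was even across parotid pieces and uneven across sublingual ones. AQP5 stood at 1.19 to 2.48 times AQP3 in parotid and at 1.66 to 2.15 times in 5 submandibular libraries, with 0.52 in that of animal 4. In sublingual gland the ratio was 18.7, 11.3, 4.74 and 15.6 in animals 2, 3, 5 and 6, and 0.384 and 0.101 in animals 1 and 4. The 4 sublingual pieces that carried the mucous markers thus all lay above every parotid and submandibular library, and the 2 others below every parotid library. AQP3 stood at 2.75 to 19.4% of the summed basal and ductal markers in all 6 sublingual libraries and at 27.5 to 62.3% in parotid, ranges that do not overlap.

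AQP1, the water channel of capillary walls and red cells, was present in every gland library and in liver at a steady low level. It held 52.1, 77.9, 73.2, 51.7, 29.0 and 55.3 TPM in parotid, and 72.6, 70.9, 100, 250, 102 and 111 TPM in submandibular gland. In sublingual gland it held 24.8, 47.8, 105, 22.3, 146 and 11.6 TPM, with animals 3 and 5 highest. Pancreas held 5.89, 6.83, 28.9, 273, 5.10 and 8.64 TPM and liver 4.44 to 7.40 TPM. The 2 highest AQP1 values of the study, 273 and 250 TPM, were those of the 2 libraries of animal 4 rich in adipocyte genes.

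In those libraries all 12 endothelial markers were at 1 TPM or more and summed to 838 TPM in pancreas and 561 TPM in submandibular gland, against at most 177 and 27.1 TPM in the other 5 libraries of each tissue. The 9 red cell markers summed to 5756 and 5590 TPM, against at most 279 and 166, and the smooth muscle markers to 4333 and 1820 TPM, against at most 188 and 247. The pancreas of animal 3, with the next highest endothelial sum (177 TPM) and adipocyte sum (1754 TPM), had the next highest AQP1 of that tissue. The part of vessels and blood in these values was not tested. Set against its own library's endothelial markers, AQP1 stood at 137 to 817% of the endothelial sum in parotid, at 354 to 632% in the 5 other submandibular libraries and at 44.5% in that of animal 4. It stood at 25.6 to 175% in sublingual gland, 9.85 to 32.5% in pancreas and 4.34 to 13.0% in liver, so that parotid and submandibular libraries all lay above pancreas and liver and the sublingual range overlapped that of pancreas. Set against the smooth muscle markers, each gland range overlapped that of pancreas. These were 14.9 to 43.7% in parotid, 13.7 to 84.1% in submandibular gland, 3.24 to 36.3% in sublingual gland and 6.29 to 28.5% in pancreas. Liver stood at 1.54 to 5.56%.

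With all libraries, AQP1 was higher in submandibular gland than in pancreas by 2.65 (SE 0.63, adjusted p 0.00583 in limma), in 5 of 6 animals. The differences of parotid (1.68, adjusted p 0.0684) and sublingual gland (1.30, adjusted p 0.192) from pancreas did not pass, although the gland was higher in 5 of 6 animals in both. Without the 2 libraries of animal 4 both passed, at 2.55 (adjusted p 1.22e-04) and 2.18 (adjusted p 5.51e-04). Trimmed-mean scaling also brought parotid past the threshold, at 2.46 (adjusted p 9.65e-04). Against liver AQP1 was higher in all 6 animals and in each gland, by 3.02 for parotid, 3.99 for submandibular and 2.65 for sublingual gland, with adjusted p of 2.87e-04, 1.09e-05 and 0.00164 in limma, and the libraries did not overlap.

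**Figure D2:**
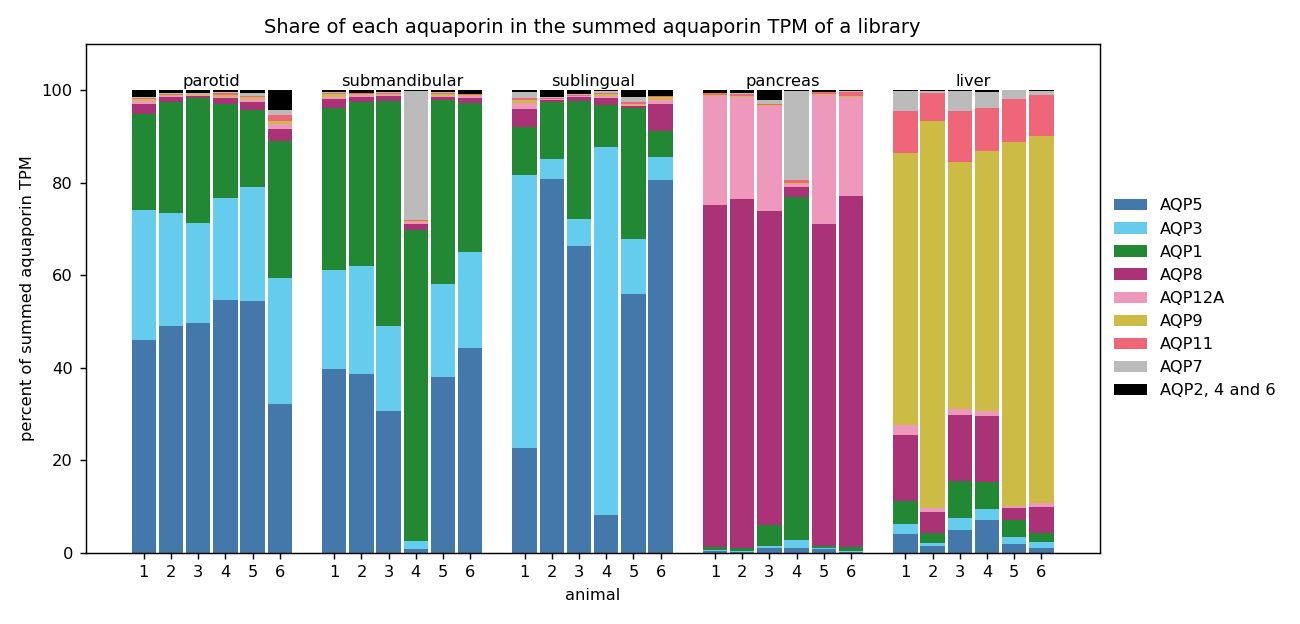
Percent of the summed TPM of the 10 members, AQP12A, AQP10 and MIP taken by each gene, 1 bar per library. AQP5, AQP3 and AQP1 fill the gland bars, AQP8 and AQP12A the pancreas bars and AQP9 the liver bars; the submandibular and pancreas bars of animal 4 are mostly AQP1 and AQP7.

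Within the family, a share that does not depend on the rest of the library, AQP5 took 47.7% ± 8.27 of the summed aquaporin TPM in parotid, AQP3 24.7% ± 2.58 and AQP1 23.1% ± 4.75 (SD, n = 6). In submandibular gland AQP1 took 43.1% ± 13.2, AQP5 32.1% ± 15.9 and AQP3 17.6% ± 7.95. Without animal 4, where AQP1 took 67.3% and AQP5 0.868%, the shares were 38.2% ± 6.37 for AQP1 and 38.3% ± 4.92 for AQP5 (SD, n = 5), with AQP5 ahead in animals 1, 2 and 6 and AQP1 ahead in animals 3 and 5. In sublingual gland AQP5 took 52.4% ± 30.5 and ranged from 8.08 to 80.8%, the lowest value being that of animal 4, where AQP3 took 79.7%. The summed level was 243 TPM ± 55.6 for parotid, 264.5 ± 75.6 for submandibular and 335 ± 123.5 for sublingual gland, against 850.3 ± 289.6 in pancreas and 181 ± 121 in liver.

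Between the glands themselves few differences passed. No member was called between parotid and submandibular gland, where 0.347% of all genes were called, and none between parotid and sublingual gland, where 41.5% were. Between submandibular and sublingual gland AQP2 was called, among 27.9% of all genes. AQP5 was lower in submandibular than in sublingual gland by 1.25 without passing (adjusted p 0.111 in limma). Without the sublingual libraries of animals 1 and 4 that difference was -2.05 and passed (adjusted p 0.0202), and AQP3 was then higher in parotid than in sublingual gland by 1.39 (adjusted p 0.0337). AQP1 was higher in submandibular than in sublingual gland by 1.35 (adjusted p 0.108), by 1.02 without the 2 libraries of animal 4 (adjusted p 0.0437) and by 2.19 after trimmed-mean scaling (adjusted p 0.00611).

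**Figure D3:**
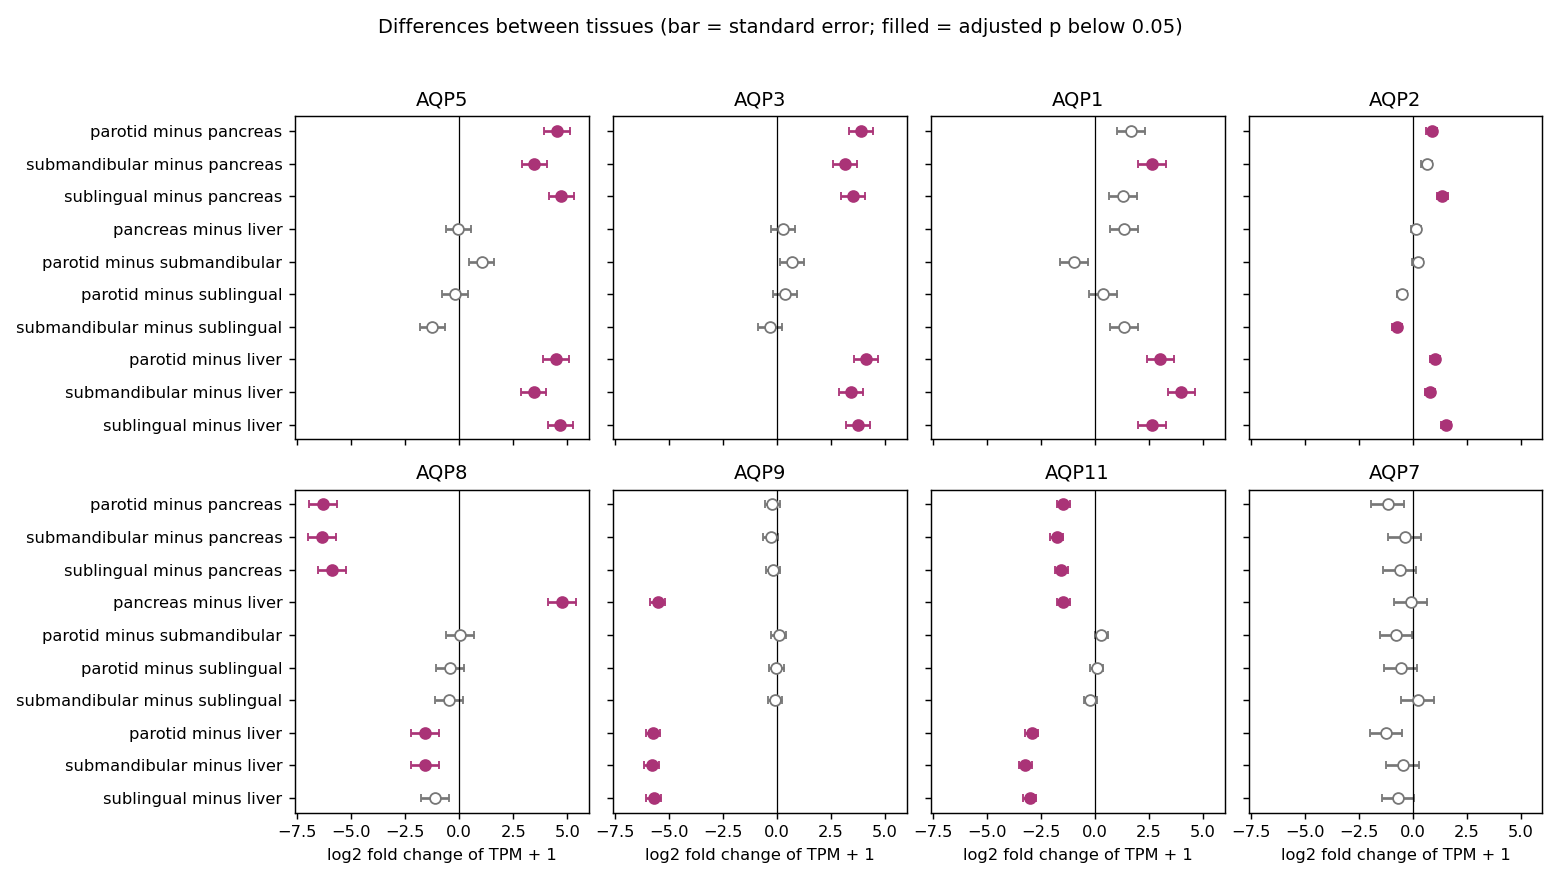
Log2 fold change of TPM + 1 (first tissue minus second) of the 8 tested members in the 10 tissue pairs, with the standard error; filled points passed an adjusted p of 0.05 in limma. AQP5 and AQP3 lie to the right in all 6 comparisons of a gland with pancreas or liver, AQP8 to the left of each gland comparison with pancreas, and AQP7 has no filled point.

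AQP8, a channel of the apical membrane of pancreatic acinar cells and of liver cells, was the most abundant aquaporin of the study. The pancreas libraries held 777, 828, 438, 7.71, 618 and 799 TPM from animal 1 to animal 6, a mean of 578 ± 315 (SD, n = 6), and of 692 ± 164 in the 5 animals other than animal 4. AQP12A, the pancreatic aquaporin of intracellular membranes, followed it with 249, 242, 146, 2.51, 247 and 226 TPM. Both genes were lowest in animal 4 and next lowest in animal 3, as were the acinar markers, which summed to 136981 TPM in animal 3. AQP8 stood at 0.247 to 0.320% of the summed acinar markers in the 5 acinar-rich libraries and at 0.235% in animal 4. Within the family AQP8 took 60.8% ± 28.9 of the pancreas sum and AQP12A 19.7% ± 9.60, and without animal 4 AQP8 took 72.6%.

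Elsewhere AQP8 was low: 1.08 to 5.28 TPM in parotid, 2.09 to 4.59 in submandibular gland, 2.05 to 12.2 in sublingual gland and 5.01 to 18.6 in liver. Against pancreas the log2 fold change was -6.31 (SE 0.65, adjusted p 1.92e-07 in limma) for parotid, -6.34 for submandibular and -5.88 for sublingual gland, lower in all 6 animals. Pancreas exceeded liver by 4.74 (adjusted p 1.61e-06), in 5 of 6 animals, the exception being animal 4 with 7.71 TPM in pancreas and 11 TPM in liver. Without the 2 libraries of animal 4 these 4 values were -7.33, -7.47, -6.91 and 5.77. AQP12A gave -5.70, -5.93, -5.62 and 5.40, all called.

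Liver held more AQP8 than each gland in all 6 animals. The difference passed for parotid (-1.57, adjusted p 0.0412 in limma) and submandibular gland (-1.60, adjusted p 0.0425) and not for sublingual gland (-1.14, adjusted p 0.199), and after trimmed-mean scaling none passed, at -0.56, -0.73 and -0.91. Without the animal block the first 2 did not pass either (adjusted p 0.0546 and 0.0567), nor when any 1 of animals 1, 2, 3, 5 and 6 was left out (adjusted p 0.0554 to 0.135 for parotid and 0.0669 to 0.126 for submandibular gland). Without the 2 libraries of animal 4 all 3 passed, at -1.57, -1.71 and -1.14.

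**Figure D4:**
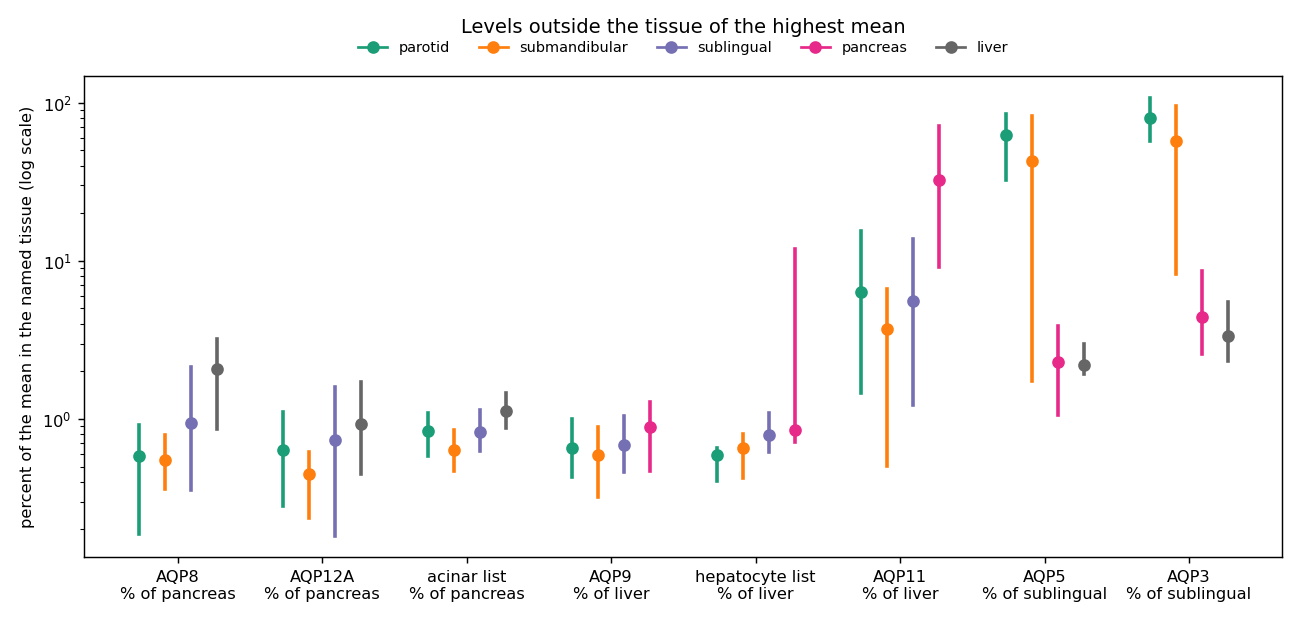
Levels outside the tissue named under each gene, as a percent of the mean there (log scale). For a gene the point is the tissue mean and the line spans the 6 libraries; for the acinar and hepatocyte lists the point is the median gene and the line spans the genes. AQP9 lies within the range of the hepatocyte list, and AQP11 lies above it. AQP12A lies within the range of the acinar list except in submandibular gland, where it is lower at 0.446%. AQP8 lies within the acinar range in the glands and reaches 2.07% in liver. AQP5 and AQP3 are a percent of the sublingual mean, for which no list is shown.

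Such low levels outside a home tissue were shared with other tissue markers. AQP8 in parotid, submandibular and sublingual gland stood at 0.584, 0.548 and 0.949% of its pancreas mean, and the median of 10 acinar digestive enzyme genes at 0.844, 0.633 and 0.823% of theirs. AQP12A stood at 0.638, 0.446 and 0.741%. In liver AQP8 reached 2.07% of its pancreas mean, above each of the 10 acinar genes, which ran from 0.878 to 1.46%, while AQP12A was at 0.934%. AQP8 was 0.336 to 0.937% of the summed acinar markers in liver, above the 0.235 to 0.320% of pancreas in every library. It was 0.173 to 0.221% in parotid, 0.2165 to 0.2865% in submandibular gland and 0.204 to 0.593% in sublingual gland. Sublingual animals 2 (0.593%) and 6 (0.523%) thus also lay above the pancreas range. AQP9 outside liver stood at 0.594 to 0.886% of its liver mean in the 4 other tissues, and the median hepatocyte gene, among 9 such as ALB, at 0.594 to 0.848%. Whether these low values come from cells of the labelled tissue was not tested.

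AQP6, a vesicle channel known from kidney, was seen in pancreas: 5.94, 7.30, 12.9, 0.233, 2.74 and 2.23 TPM there, and at most 0.718 TPM in any other library. It had no test, since 5 libraries reached 1 TPM. Its highest value was in animal 3, whose islet markers summed to 132639 TPM against 450 to 12707 in the other 5 pancreas libraries, with INS (insulin) at 127239 TPM. In animals 1, 2, 4, 5 and 6 the islet sums were 12707, 7205, 450, 11433 and 10449 TPM. Animal 4 was lowest in both, but animal 2 held more AQP6 than animals 1, 5 and 6 at a lower islet sum. The part of islet cells in the AQP6 values was not tested. AQP8 was lower in the pancreas library of animal 3 than in the 4 other acinar-rich ones, so AQP6 and AQP8 did not rank alike in pancreas. In the T2T-MMU8v2.0 gene table AQP2, AQP5 and AQP6 are neighbours, yet AQP5 was highest in glands and AQP6 in pancreas.

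AQP9, the aquaglyceroporin through which liver cells take up glycerol, was the liver member. The 6 livers held 52.5, 270, 38.3, 43.6, 154 and 259 TPM, a mean of 136 ± 108 (SD, n = 6), and every other library held 1.74 TPM or less. AQP9 took 68.3% ± 13.5 of the aquaporin sum in liver. Pancreas was lower than liver by 5.53 (SE 0.34, adjusted p 3.48e-13 in limma), parotid by 5.75, submandibular gland by 5.81 and sublingual gland by 5.72, in all 6 animals and without overlap. Among the glands and pancreas no difference of AQP9 passed.

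AQP11, a channel of the endoplasmic reticulum, held 8.09, 19.4, 7.94, 7.18, 18.3 and 29.2 TPM in liver. Animals 2, 5 and 6 had the 3 highest values of AQP9 and of AQP11 there. ALB (albumin) was 11506, 40306, 19666, 19122, 35844 and 46181 TPM and the 9 hepatocyte markers summed to 57799, 114573, 84054, 86655, 100883 and 110474 TPM, both again highest in these 3 animals. So were AQP1 (4.44, 7.40, 5.73, 4.59, 7.16 and 5.86 TPM) and AQP3 (1.90, 2.36, 1.79, 1.74, 3.00 and 4.11 TPM), over a narrower range, while AQP8 (12.7, 14.4, 10.3, 11, 5.01 and 18.6 TPM) was lowest in animal 5. The part of hepatocyte RNA in the AQP9 and AQP11 values was not tested.

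AQP11 was called in all 4 main comparisons. It held 4.74, 5.85, 1.38, 2.31, 4.04 and 10.8 TPM in pancreas, and at most 2.33 TPM in any gland library. Pancreas exceeded parotid, submandibular and sublingual gland by 1.47, 1.77 and 1.56 on the log2 scale (the gland minus pancreas values being -1.47, -1.77 and -1.56, with adjusted p of 0.00122, 1.92e-04 and 5.73e-04 in limma), in all 6 animals. Liver exceeded pancreas in all 6 animals as well (-1.46, SE 0.30, adjusted p 4.79e-04), and that call was lost under quantile normalisation (-0.73, adjusted p 0.0545) and relative to all but the 100 most abundant genes (-0.67, adjusted p 0.106). The means thus ordered as liver (15.0 TPM), pancreas (4.85) and the 3 glands (0.553 to 0.955), which did not differ among themselves past the threshold.

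**Figure D5:**
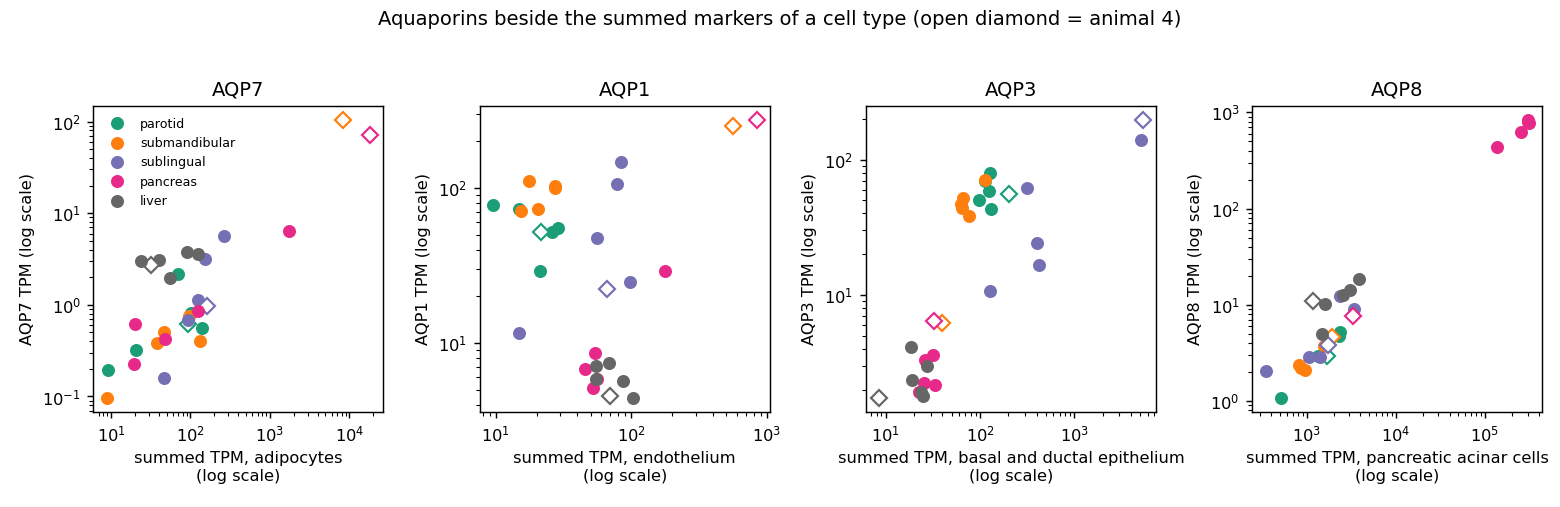
TPM of AQP7, AQP1, AQP3 and AQP8 against the summed TPM of the markers of a cell type in the same library (all axes log scale), coloured by tissue; open diamonds are animal 4. The 2 highest AQP7 and AQP1 values, in pancreas and submandibular gland of animal 4, lie at the highest adipocyte and endothelial sums, and the 2 highest AQP3 values, in sublingual gland of animals 1 and 4, at the highest keratin sums.

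AQP7 lets glycerol out of fat cells. Its highest values, 103 TPM in submandibular gland and 70.8 TPM in pancreas of animal 4, were in the 2 libraries with the highest adipocyte sums, and the other 10 libraries of these tissues held 0.0969 to 6.44 TPM. The 6.44 TPM belonged to the pancreas of animal 3, the library with the next highest adipocyte sum. Parotid held 0.194 to 2.18 TPM, sublingual gland 0.159 to 5.65 TPM and liver, more evenly, 1.99 to 3.73 TPM. With all libraries AQP7 was called in 0 of the 10 tissue pairs, without the 2 libraries of animal 4 in 3, and without those and 2 further libraries (sublingual gland of animal 4, parotid of animal 6) in 5. The part of fat in the AQP7 values was not tested. AQP7 stood at 0.305 to 1.25% of the adipocyte sum in submandibular gland, animal 4 being highest, and at 2.87 to 12.3% in liver. In pancreas it stood at 0.367 to 3.03%, and there the fat-rich libraries of animals 3 and 4 were lowest, at 0.367 and 0.384%. AQP3 is the neighbour of AQP7 in the T2T-MMU8v2.0 gene table. In the 2 libraries where AQP7 was highest AQP3 stood at 6.19 TPM, the lowest submandibular value, and at 6.40 TPM, the highest pancreas value.

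AQP4, the channel of astrocytes that is also found in fast skeletal muscle fibres, exceeded 1 TPM in 3 libraries. These were parotid of animal 6 (6.55 TPM), sublingual gland of animal 5 (3.24 TPM) and parotid of animal 1 (2.25 TPM), and every other library held 0.249 TPM or less. The 9 skeletal muscle markers summed to 81176, 25991 and 6222 TPM in these 3 libraries in the same order. The sublingual library of animal 1 was an exception, with a muscle sum of 9704 TPM and 0.0415 TPM of AQP4. The remaining 26 libraries had muscle sums of at most 847 TPM. The part of muscle in these values was not tested.

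AQP2, the channel that vasopressin controls in the kidney, was low but ordered like AQP5. It held 0.525 to 1.86 TPM in parotid, 0.368 to 2.47 in submandibular gland, 0.381 to 5.03 in sublingual gland, 0.0811 to 0.486 in pancreas and 0 to 0.151 in liver. It was higher than in pancreas by 0.88 in parotid (adjusted p 0.0161 in limma) and 1.38 in sublingual gland (adjusted p 2.12e-04), in all 6 animals, and the 0.65 of submandibular gland did not pass (adjusted p 0.102). The lower submandibular than sublingual level (-0.73, adjusted p 0.0297) did not hold under trimmed-mean scaling, at -0.19 (adjusted p 0.654), or without the animal block (adjusted p 0.0524), and leaving out animal 2, 3 or 5 gave -0.55, -0.63 and -0.56 (adjusted p 0.177, 0.155 and 0.177). With only the 12 libraries of the pair it did not pass either (adjusted p 0.223 in limma). It passed without the 2 libraries of animal 4, at -0.76 (adjusted p 0.0146 in limma). Without sublingual animals 1 and 4 it was -1.18 (adjusted p 0.00104). Without animal 2 the parotid difference from pancreas was 0.80 (adjusted p 0.0640), and without animal 3 it was 0.88 (adjusted p 0.0689). Against liver AQP2 was higher by 1.04, 0.80 and 1.54 in parotid, submandibular and sublingual gland, all called, and the submandibular value without animal 6 was 0.65 (adjusted p 0.0518). AQP2 was 0.378 to 1.86% of its neighbour AQP5 in parotid, 0.698 to 11.4% in submandibular gland (median 1.11%, animal 4 highest), 1.06 to 1.92% in sublingual gland, 1.90 to 8.87% in pancreas and 0 to 4.03% in liver, and whether reads of AQP5 transcripts were assigned to AQP2 was not tested.

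For each member the genes most like it were taken by Pearson correlation of log2(TPM + 1) over the 30 libraries among 8470 candidates. The libraries share tissues and animals, so the values are descriptions. AQP5 was most like LRRC26 (r = 0.97), a potassium channel subunit, LPO (0.97), the salivary lactoperoxidase, and IRX2 (0.96), and after removal of the tissue means most like FOLR1 (0.95), ETV1 (0.92) and LPO (0.92). AQP3 was most like PAX9 (0.95), a transcription factor of the oral epithelium, KIAA1211L (0.91) and PITX1 (0.90), and after removal of the tissue means CEACAM6 (0.89), NEBL (0.88) and SLC6A14 (0.88). AQP1 was most like SORT1 (0.93), LDOC1 (0.91) and CHST1 (0.91), with SORT1 (0.88), PKP4 (0.88) and MYH11 (0.87), the smooth muscle myosin, within tissues. AQP2 was most like CRACR2A (0.91), LPO (0.88) and TMPRSS5 (0.88).

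AQP8 was most like PRSS2 (0.98), a trypsinogen, PNLIPRP1 (0.98) and PDIA2 (0.98), the same 3 genes that led within tissues, and AQP12A like PDIA2 (0.99), PNLIPRP1 (0.99) and SERPINI2 (0.99). AQP9 was most like F9 (0.998), the coagulation factor IX, AKR1D1 (0.997) and PKLR (0.995), and within tissues F9 (0.96), AKR1D1 (0.95) and HAO1 (0.94). AQP11 was most like HABP2 (0.94), DIO1 (0.94) and GSTA2 (0.935), and within tissues its highest value was lower, 0.79 for DIO1. AQP6 was most like PDX1 (0.96), a transcription factor of pancreas and islets, GNG4 (0.94) and GUCA2A (0.94). AQP7 was most like PXDN (0.98), NPR1 (0.97) and STAT5A (0.97), and AQP4 like PHOSPHO1 (0.97), SYNPO2 (0.96) and SYPL2 (0.96), both resting on the few libraries where these aquaporins were high.

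The ion transporters that drive fluid secretion differed between glands and pancreas in both directions. Of 13 tested, 4 were higher and 3 lower in parotid than in pancreas, 5 and 2 in submandibular gland, and 7 and 2 in sublingual gland, with medians of -0.02, 0.22 and 1.30. Of all genes, 15.8, 9.71 and 13.9% were called in these comparisons, with 303, 305 and 1412 higher and 1838, 1011 and 475 lower. In parotid the calcium-activated potassium channel KCNN4 rose by 3.00 (adjusted p 1.05e-04 in limma) and the calcium-activated chloride channel ANO1 by 2.99 (adjusted p 9.55e-06), from 1.02 TPM ± 0.699 in pancreas to 15.4 ± 5.84. ANO1 was as high in liver, at 18.8 TPM ± 5.85. The bicarbonate cotransporter SLC4A4 was lower in each gland, at -2.58, -2.58 and -2.46, and CFTR, the cyclic AMP-regulated chloride channel, was -1.81 in parotid and -1.54 in sublingual gland. SLC12A2, the sodium-potassium-chloride cotransporter of acinar cells, was higher in sublingual gland (5.61 TPM ± 3.62, log2 fold change 1.69, adjusted p 4.49e-05) and did not pass in parotid (-0.02) or submandibular gland (0.22). In pancreas against liver 2 of the 13 were higher and 1 lower, with a median of 0.23. There 30.4% of all genes were called, 916 higher and 3198 lower. After trimmed-mean scaling the counts against pancreas were 6 higher and 3 lower for parotid, 6 and 2 for submandibular gland, 7 and 4 for sublingual gland, and in pancreas against liver 4 and 1.

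Among 14 receptors and calcium genes, 2 were higher and 2 lower in parotid than in pancreas, 3 and 2 for submandibular gland, 4 and 1 for sublingual gland, and 3 and 5 in pancreas against liver, with medians of 0.09, 0.44, 0.55 and -0.08. The shares of all genes called in these 4 comparisons were 15.8, 9.71, 13.9 and 30.4%. SCTR, the secretin receptor, was lower in the 3 glands, at -5.32, -5.05 and -5.04, and higher in pancreas than in liver by 4.40, all called in limma. The beta-1 adrenergic receptor ADRB1 was higher in parotid (2.63) and submandibular gland (2.02). CHRM3, the muscarinic receptor that starts salivation, stood at 1.49 TPM ± 0.704 in parotid, 1.96 ± 0.974 in submandibular gland and 0.831 ± 0.462 in pancreas, and its differences did not pass (0.44 and 0.63). Without the 2 libraries of animal 4, 4 of the 14 were higher in parotid and 7 in sublingual gland than in pancreas, and after trimmed-mean scaling 5, 8 and 4 were higher and 3, 2 and 2 lower in the 3 glands. Over all genes, calls against pancreas also moved between settings, from 947 to 4038 for parotid and 1049 to 5079 for sublingual gland. For submandibular gland they ran from 623 to 4864. The share of all genes called without the 2 libraries of animal 4 is not reported here.

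Of 8 tight junction genes of the paracellular path, 1 was higher and 2 lower in parotid than in pancreas, 0 and 1 for submandibular gland, 2 and 2 for sublingual gland, and 3 and 2 in pancreas against liver, with medians of -0.62, -0.40, 0.48 and -0.08. Over all genes 15.8, 9.71, 13.9 and 30.4% were called in these comparisons. CLDN4, a claudin of tight epithelia, rose by 1.73 in parotid and 3.60 in sublingual gland, and OCLN (occludin) was lower in the 3 glands, at -2.0, -1.75 and -1.08. Of 11 genes of glycerol handling, 0 were higher and 5 lower in pancreas than in liver, with a median of -0.77, and 2 were higher and 5 lower after trimmed-mean scaling. All genes also leaned that way without the scaling, with 916 higher and 3198 lower in pancreas. The 11 genes summed to 131 to 2119 TPM in pancreas libraries (median 168) and to 2138 to 5931 TPM in liver. Their counts without the 2 libraries of animal 4 are not reported here. PCK1 (-5.72) and FBP1 (-4.82), enzymes of glucose production, and the glycerol kinase GK (-2.31, from 11.9 TPM ± 4.55 in liver to 1.5 ± 0.356 in pancreas) were all lower in pancreas (limma, adjusted p 6.90e-10, 1.84e-13 and 2.47e-08). GK was at 9.03 to 13.6 TPM in liver of animals 1, 2, 3 and 5, at 6.17 TPM in animal 4 and at 19.6 TPM in animal 6, an order that differs from that of AQP9. In parotid, submandibular and sublingual gland against pancreas 0, 0 and 2 of the 11 were higher and 2, 1 and 1 lower, and after trimmed-mean scaling 1, 0 and 2 were higher and 0, 0 and 2 lower.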

How the data were processed

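RNA was extracted from frozen sections and sequenced as paired reads, per the labels. The authors deposited 1 table of TPM values, 1 column per library. Kallisto, FastQC and cutadapt are among the tools of the submitters' processing notes, and the transcriptome and build are not given in the sources used here. Each column sums to the same total, so depth is unknown and the number of animals limits the precision. The members, lists and tests were chosen with earlier results of these data known.

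Limma 3.58.1 (R 4.3.3) was used on log2(TPM + 1) of every gene that reached 1 TPM in 6 or more libraries, with tissue and animal as terms, all 30 libraries and a variance trend, and tested on simulated data. P-values are two-sided, adjusted over the 13550 genes within each of 10 tissue pairs.

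The labels give the same 6 animals in every tissue, which pairs the libraries. Deviations from tissue means correlated at a mean of 0.161 within an animal, ranging from -0.304 to 0.6996, and at a mean of -0.0186 between animals. No sequence or coordinate is printed, and neighbours come from a RefSeq table of T2T-MMU8v2.0, which held 12 of the 13 family symbols.

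Named genes are every aquaporin row, the 3 genes most like each member over libraries and after removal of tissue means (mean of at least 5 TPM in a tissue), and up to 3 called genes per list with the largest change, with SLC12A2, ANO1, CHRM3 and GK. Some genes that this rule takes are not reported here. Some list genes are followed into comparisons where they were not among these 3; this and the genes of the mouth lining were chosen after the values were seen. Alternatives were no animal block, trimmed-mean scaling (30% of log ratios and 5% of levels trimmed), quantile normalisation, TPM relative to all but the top 100 genes, no filter, a filter of 5 TPM, a pseudocount of 0.1, no trend, only the 12 libraries of a pair, each animal left out, and without 2 or 4 libraries of doubtful tissue. Leaving out sublingual animals 1 and 4 was an alternative chosen after seeing the data.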

Additional observations from a re-analysis of the deposited data

Results flagged for a closer look

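In 9 of 55 sets of 6 libraries, 1 library lay far from the other 5. Chance would give about 2.75 in independent sets, but these sets share libraries, so that number does not apply directly. Of the 9, 7 were the pancreas and submandibular libraries of animal 4. In submandibular gland of animal 4 these were AQP1 at 249.9 TPM, AQP3 at 6.195, AQP4 at 0.195, AQP5 at 3.221 and AQP7 at 103.4, and in its pancreas AQP8 at 7.71 and AQP12A at 2.514. The others were AQP2 in pancreas of animal 3, at 0.4864 TPM, and AQP4 in sublingual gland of animal 5, at 3.237 TPM.

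In 3 of 90 comparisons all 4 females moved one way and both males the other, and this difference was not tested. How many of the 90 would split so by chance was not worked out, so the 3 are descriptions. For AQP3, pancreas exceeded liver in the females and lay below it in the males, the mean log2 differences being 1.1258 apart and 0.86 without animal 4. AQP3 and AQP5 were higher in parotid than in submandibular gland in the females and lower in the males, by 1.6302 and 2.5868, and by 1.05 and 1.54 without animal 4.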

How the results depend on the processing

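Of the 43 differences called for the members and AQP12A, 37 stayed past the threshold under every alternative that tested them. AQP2 had no test under the filter of 5 TPM. The other calls were those of AQP2 in parotid against pancreas, in submandibular gland against liver and between submandibular and sublingual gland. They also included AQP8 in parotid and submandibular gland against liver, and AQP11 in pancreas against liver. AQP11 there was -0.73 (adjusted p 0.0545) by quantile normalisation and -0.67 (adjusted p 0.106) relative to all but the top 100 genes. Without the replicate block, AQP8 in parotid against liver was -1.57 (adjusted p 0.0546), in submandibular gland against liver -1.60 (adjusted p 0.0567), and AQP2 between submandibular and sublingual gland -0.73 (adjusted p 0.0524), and no other call of these paired comparisons was lost.

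AQP1 was called in 4 pairs, in 7 with trimmed-mean scaling, 8 by quantile normalisation, 8 relative to all but the top 100 genes and 7 without the 2 doubted libraries. AQP7 was called in 0 pairs, in 3 and 5 without the 2 and 4 doubted libraries, 1 with the 12 libraries of a pair alone and between 0 and 2 when 1 animal was left out. AQP8 was called in 6 pairs and in 4 to 7 otherwise, and AQP2 in 6 and in 4 to 8.

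The call of AQP2 between submandibular and sublingual gland turned to 0.0757 relative to all but the top 100 genes. The other values that changed sign were of differences that did not pass. For AQP3 in submandibular against sublingual gland they were 0.56 (trimmed-mean), 0.75 (quantile), 1.06 (top 100 genes left out), 0.25 and 0.56 (without 2 and 4 doubted libraries), 0.68 (without sublingual animals 1 and 4) and, without 1 animal, -0.9181 to 0.56. For AQP5 in pancreas against liver they were 0.30, 0.39 and 0.61 under the 3 scalings, 0.0032 without the 4 doubted libraries, and -0.2168 to 0.12 without 1 animal (0.03 and 0.02 without animals 4 and 6). For AQP5 in parotid against sublingual gland they were 0.84, 1.15 and 1.26 under the 3 scalings and -0.7963 to 0.0739 without 1 animal (0.05 without animal 6), and in submandibular against sublingual gland 0.17 with the top 100 genes left out. AQP1 in parotid against sublingual gland was -0.18 without sublingual animals 1 and 4. The cause of these changes was not tested.

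Over all genes the calls ran from 947 to 4038 (2141 in the reported fit) for parotid against pancreas, 623 to 4864 (1316) for submandibular gland, 1049 to 5079 (1887) for sublingual gland and 2817 to 7091 (4114) for pancreas against liver. They ran from 0 to 111 (47) between parotid and submandibular gland, 2376 to 9266 (5625) between parotid and sublingual gland and 666 to 9473 (3787) between submandibular and sublingual gland. Against liver they ran from 5435 to 10102 (7856) for parotid, 4902 to 10074 (6876) for submandibular gland and 2726 to 6208 (4273) for sublingual gland. The depth of the libraries is unknown, so values of AQP2, AQP4 and AQP6 below 1 TPM cannot be told from a few reads.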
